A study of Capra hircus with 24 samples.

Results

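Toll-like receptors are membrane proteins that sense microbial molecules, and CD14, LY96 and MYD88 work with them at the membrane and inside the cell. Their transcripts were followed here in milk and blood of dairy goats on an array designed for cattle. The genes were taken by their cattle RefSeq identifiers, which the array files give for each probe. They are those of the receptors TLR1 (NM_001046504), TLR2 (NM_174197), TLR3 (NM_001008664), TLR4 (NM_174198), TLR6 (NM_001001159), TLR7 (NM_001033761) and TLR9 (NM_183081), of the receptor partners LY96 (NM_001046517) and CD14 (NM_174008), and of the adaptor MYD88 (NM_001014382). All 10 had at least 1 probe, and together they held 27 of the 43653 non-control probes of the array. Of these, 23 probes of 9 genes were bright enough to test, which means a signal well above background on each of the 4 arrays of 1 or more groups. The other 4 probes, which include the only TLR1 probe, were too dim. The array files hold no probe sequences, so no sequences are printed and probes are given by name.

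In mammals TLR4 recognises bacterial lipopolysaccharide together with LY96 (also called MD-2), and CD14 hands the lipopolysaccharide to this pair. TLR2 pairs with TLR1 or TLR6 to recognise bacterial lipopeptides, while TLR3, TLR7 and TLR9 lie in endosomes and recognise nucleic acids. MYD88 is the adaptor that carries the signal of most of these receptors, TLR3 excepted, towards NF-kB, and macrophages and neutrophils, both found in milk, are known to carry several of them.

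RNA came from 8 healthy female goats in lactation 3. Of these, 4 were Polish White Improved (PWI) and 4 were Polish Fawn Improved (PFI). From each goat there were somatic cells of the milk (MSC), peripheral nuclear blood cells (PNCB) and milk fat globules (MFG, secreted lipid droplets that carry some cytoplasm of the secreting cell), so that 6 groups of 4 arrays were formed. On all 24 arrays the sample carried Cy5 and a common reference carried Cy3, with no dye swap. The reference pooled blood RNA of 7 goats in lactation 4, of which 4 were PWI and 3 PFI. A level below is the log2 ratio of a sample to this reference, and a difference is that between mean log2 ratios. One kit served both milk sources and another served blood, so in a comparison with PNCB the kit and the source cannot be told apart. In such bulk RNA, fewer cells of a type and less RNA per cell cannot be told apart. The labelled cell types were not checked against other marker genes, because the files pair probes with cattle transcripts and not with gene symbols.

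Between 51.2% and 60.9% of the probes were well above background in Cy5 in MSC, and between 57.5% and 65.6% in PNCB. In MFG the arrays of PWI goats 2 and 4 stood apart at 84.6% and 75.3%, and the other 6 lay between 44.1% and 51.5%. The slope of the spike-in controls was 0.645 and 0.567 on the PNCB arrays of PWI goats 3 and 4 and 0.489 on the MFG array of PWI goat 2, against 0.758 to 0.887 on the others. Each group lay on a slide of its own, so within a source the slide and the breed cannot be told apart. The scan of the MFG arrays fell on another day, so a scan effect and an MFG effect cannot be told apart. Of the 552 values of the tested probes, 23 on 11 arrays came from spots with an outlier flag and were left out, 7 of them on the PNCB array of PWI goat 4, and each n below counts what was left.

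The question of the first comparisons was how the RNA sources of the same goats differ. Milk somatic cells had a higher level of TLR4 than blood, and TLR2 and TLR6 differed in a direction that depended on the probe, while milk fat globules had lower levels than both cell sources at most probes of these genes. In MSC against PNCB, 13 of the 23 probes passed the threshold of adjusted p under 0.05 (limma, Benjamini-Hochberg over all probes tested), 7 higher and 6 lower, beside 49.6% of all probes. In MFG against PNCB, 16 of the 23 passed, 1 higher and 15 lower, beside 63.9% of all probes, of which 38.4% were lower. In MFG against MSC, 16 of the 23 passed and all 16 were lower, beside 34.8% of all probes, of which 22.2% were lower. No array of one source overlapped the other at 8, 7 and 11 of the 23 probes in these 3 comparisons, beside 21.5%, 28.5% and 11.9% of all probes. The share of member probes called was thus near the background in the first 2 comparisons, at 56.5% and 69.6%, and above it in the last, at 69.6%.

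The median difference of the 23 probes was 0.21 in MSC against PNCB, -0.52 in MFG against PNCB and -0.71 in MFG against MSC. The same medians over all probes tested were -0.04, -0.13 and -0.02. When the 3 arrays with a spike-in slope under 0.7 were left out, the counts of called probes were 17 (11 higher), 13 and 17. Over all 27345 probes they were then 14887, 18515 and 13208, beside 13570, 17494 and 9533 of 27381 as reported. Taking each gene by its brightest probe, 4 of 9 genes were called in MSC against PNCB, 7 of 9 in MFG against PNCB and 6 of 9 in MFG against MSC. With the mean of the probes of a gene as its value, 4, 7 and 6 were called. Over all genes tested this gave 8773, 11293 and 6104 of 16822.

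**Figure D1:**
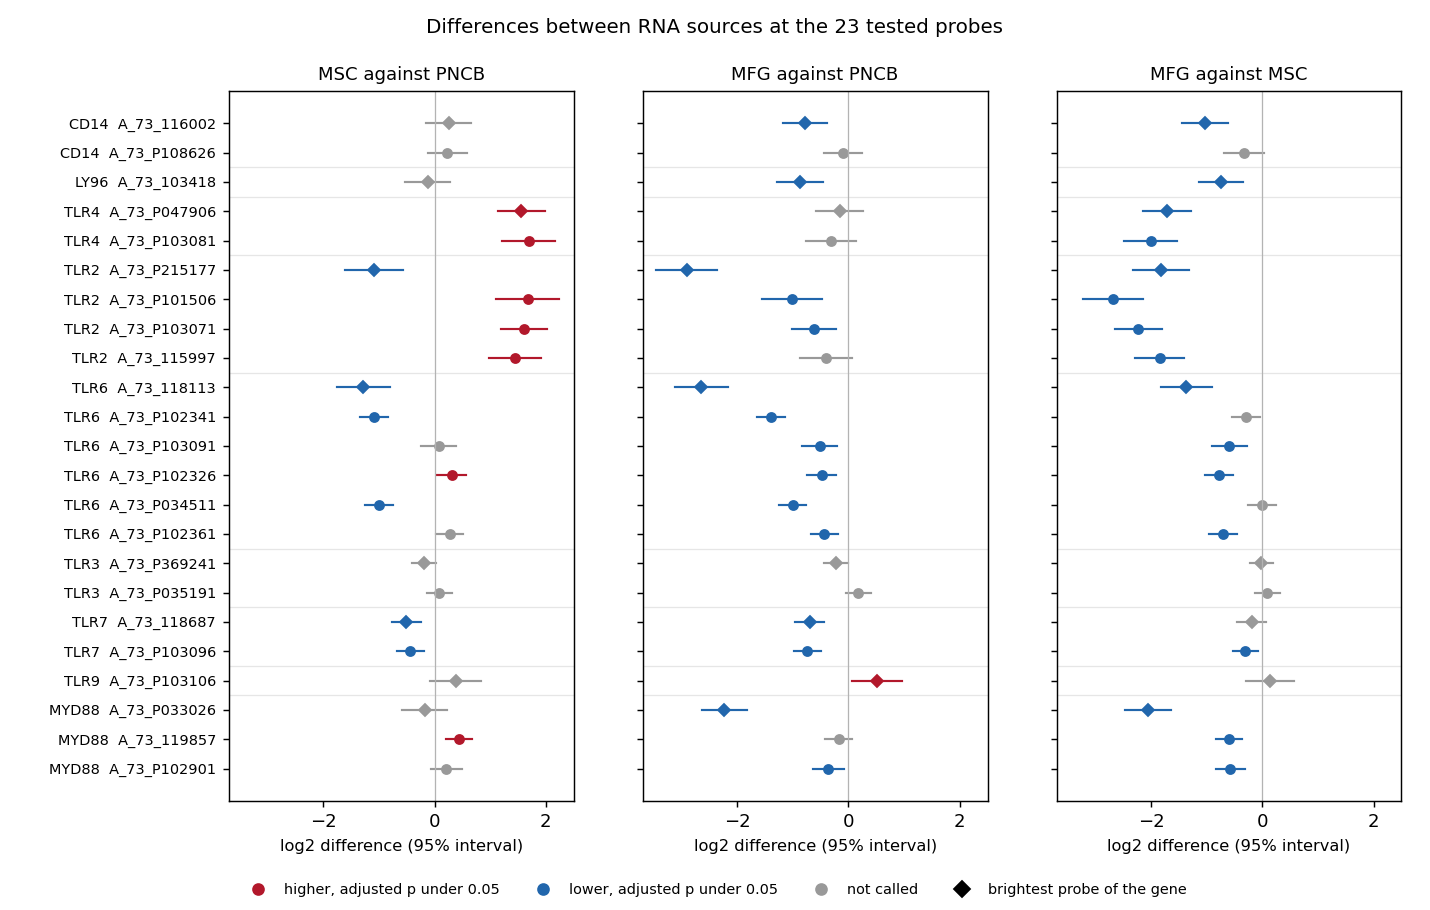
Log2 difference between RNA sources (x axis, with 95% interval) at each of the 23 tested probes (y axis, ordered by gene), with 1 panel per comparison and with called probes coloured. The 2 tested TLR4 probes lie at 1.56 and 1.69 in MSC against PNCB, and in MFG against MSC the 16 called probes all lie below 0.

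TLR4 is the receptor of the lipopolysaccharide complex, and its transcript was higher in milk somatic cells than in blood or in milk fat globules. At its brightest probe, A_73_P047906, the MSC level was 1.45 ± 0.45 (SD, n = 8), with a lowest, median and highest value of 0.75, 1.41 and 1.99. The PNCB level was -0.11 ± 0.35 (SD, n = 8), with values of -0.50, -0.12 and 0.38. The MFG level was -0.26 ± 0.49 (SD, n = 8), with values of -0.92, -0.41 and 0.55. The lowest MSC array was thus above the highest array of either other source. The difference of MSC from PNCB was 1.56 (SE 0.20, 2.94-fold, adjusted p = 1.3e-06 by limma) and had this direction in 8 of 8 goats. MFG was lower than MSC by a difference of -1.71 (3.28-fold, adjusted p = 9.1e-07), again in 8 of 8 goats. Cy3 alone was 0.48 higher in MFG than in MSC at this probe, and its part in the result was not tested. The call was kept under each of 25 alternatives, with differences from -2.92 to -1.21.

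The second tested TLR4 probe, A_73_P103081, told the same order of MSC and PNCB. Its levels were 1.66 ± 0.61 (SD, n = 7) in MSC, -0.05 ± 0.35 (SD, n = 8) in PNCB and -0.36 ± 0.37 (SD, n = 8) in MFG. The difference of MSC from PNCB was 1.69 (3.23-fold, adjusted p = 2.4e-06 by limma), in 7 of 7 goats, and that of MFG from MSC was -2.01 (4.02-fold). Both probes kept the higher level of MSC under every alternative processing run, 25 and 24 of them, with differences between 1.35 and 2.09. The third probe, A_73_105309, was well above background on 1 of 24 arrays and was not tested.

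MFG and PNCB were not told apart at TLR4. The difference was -0.16 (95% interval -0.58 to 0.27) at A_73_P047906 and -0.31 (95% interval -0.77 to 0.14) at A_73_P103081. A_73_P047906 stayed uncalled in 24 of 25 alternatives and A_73_P103081 in 20 of 24. With median centring of the arrays in place of loess the differences were -1.44 and -1.47, and both were called. The median over all probes in that comparison was then -0.82 in place of -0.13. Cy3 alone, which held the same reference on each array, was 0.58 higher in MFG than in PNCB at A_73_P047906, and its part in the result was not tested.

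LY96, the TLR4 partner that contacts the lipopolysaccharide, had 1 probe, A_73_103418, and was low in milk fat globules. Its levels were -0.40 ± 0.52 (SD, n = 8) in MSC, -0.25 ± 0.26 (SD, n = 7) in PNCB and -1.15 ± 0.33 (SD, n = 8) in MFG. MFG and PNCB did not overlap, with a highest MFG array of -0.78 and a lowest PNCB array of -0.58. The difference of MFG was -0.87 from PNCB (1.83-fold, adjusted p = 0.00058 by limma, 7 of 7 goats). From MSC it was -0.75 (1.68-fold, adjusted p = 0.0039, 7 of 8 goats). That call was kept in 23 of 25 alternatives, and PFI goats alone (-0.62) were among the losses. MSC did not pass against PNCB, with a difference of -0.13 (95% interval -0.54 to 0.28), so the higher MSC level of TLR4 had no called counterpart at LY96. Whether LY96 and TLR4 differ in this was not tested.

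CD14, the surface protein that delivers lipopolysaccharide to TLR4 and LY96 and is known as a monocyte marker, gave no called difference between milk somatic cells and blood. At its brighter probe, A_73_116002, the levels were 0.53 ± 0.41 (SD, n = 7) in MSC, 0.27 ± 0.37 (SD, n = 8) in PNCB and -0.55 ± 0.42 (SD, n = 7) in MFG. The lowest, median and highest MSC values were 0.09, 0.48 and 1.31, and those of PNCB were -0.25, 0.24 and 0.85, so these sources overlapped. The difference of MSC from PNCB was 0.25 (95% interval -0.15 to 0.65, adjusted p = 0.29 by limma). With those 3 low-slope arrays left out it was 0.43 and was called (adjusted p = 0.0495). It stayed uncalled in 23 of 25 alternatives, and the lowest adjusted p among them all was 0.0302 by limma.

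MFG was lower than both cell sources at this CD14 probe. The difference was -0.78 from PNCB (1.72-fold, adjusted p = 0.0013 by limma, 6 of 7 goats) and -1.04 from MSC (2.05-fold, adjusted p = 0.00036, 7 of 7 goats). Cy3 alone was 0.73 higher in MFG than in PNCB and 0.68 higher than in MSC at this probe, and its part in the result was not tested. With Cy5 alone the differences were 0.09 (adjusted p = 0.81) and -0.16 (adjusted p = 0.70), and with PWI goats alone they were -0.48 and -0.73, none of them called. The other CD14 probe, A_73_P108626, passed in none of the 3 comparisons, with differences of 0.23, -0.10 and -0.33 in MSC against PNCB, MFG against PNCB and MFG against MSC. It stayed uncalled in 22, 23 and 23 of 24 alternatives in turn. In MSC against PNCB these gave differences from -0.01 to 0.55, with a lowest adjusted p of 0.0180 by limma.

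**Figure D2:**
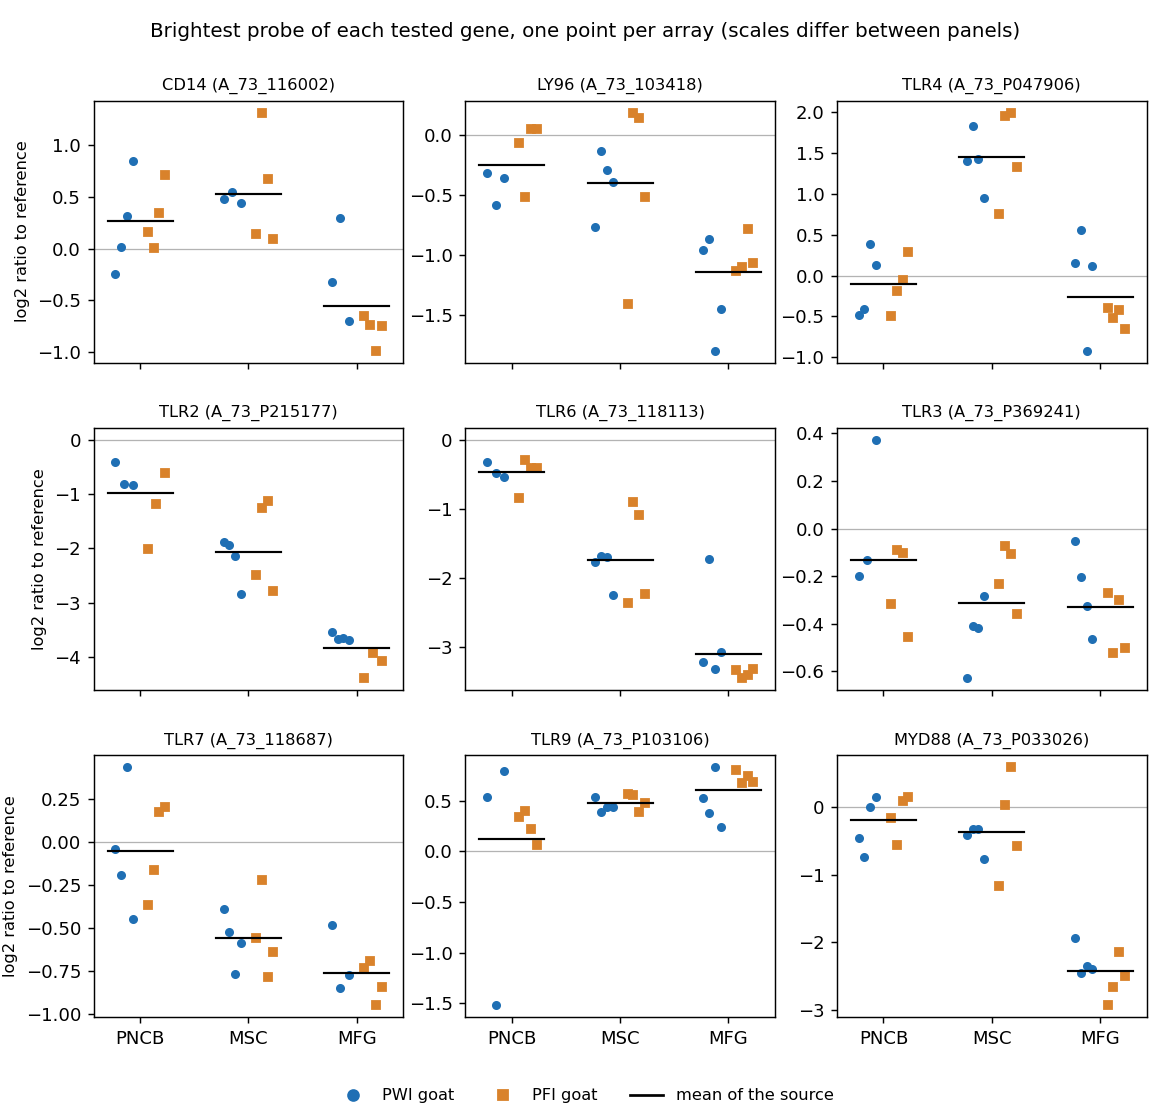
Log2 ratio to the common reference (y axis, whose scale differs between panels) by RNA source (x axis) at the brightest probe of each of the 9 tested genes, with 1 point per array marked by breed and a bar at the mean of the source. The 8 MSC arrays of TLR4 lie at 0.75 to 1.99, above all PNCB and MFG arrays, and the 8 MFG arrays of MYD88 lie at -2.94 to -1.94, below all others.

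TLR2, the receptor for bacterial lipopeptides, was measured by 4 probes, and these did not give 1 direction in milk somatic cells against blood. At 3 of them MSC was higher by 2.72-fold to 3.19-fold, while at the brightest it was lower. At A_73_P101506 the lowest, median and highest values were 0.62, 1.70 and 2.57 in MSC (mean 1.56 ± 0.69, SD, n = 7) and -0.47, -0.10 and 0.15 in PNCB (mean -0.12 ± 0.22, SD, n = 7). No MSC array overlapped a PNCB array there, and the difference was 1.67 (SE 0.27, adjusted p = 2.9e-05 by limma, 6 of 6 goats). The differences at A_73_P103071 and A_73_115997 were 1.61 (3.06-fold) and 1.45 (2.72-fold), with no overlap and with MSC higher in 7 of 7 goats at each. These 3 probes kept their calls and direction under each of 24 alternatives.

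The brightest TLR2 probe, A_73_P215177, was lower in MSC than in PNCB. Its values were -2.83, -2.04 and -1.13 in MSC (mean -2.06 ± 0.64, SD, n = 8) and -2.01, -0.82 and -0.40 in PNCB (mean -0.97 ± 0.57, SD, n = 6). The difference was -1.09 (2.12-fold, adjusted p = 0.0013 by limma), lower in 6 of 6 goats although the groups overlapped. With PFI goats alone it was -0.65 and was no longer called (adjusted p = 0.26). With the mean of all 4 probes as the value of the gene, TLR2 was higher in MSC by 0.78 (adjusted p = 0.0044). Which of these probes reads the goat transcript faithfully was not tested, so the direction of TLR2 in MSC against PNCB differs by probe.

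In milk fat globules all 4 TLR2 probes were lower than in milk somatic cells, and here they gave 1 direction. The differences were -1.82 (3.54-fold) at A_73_P215177, -2.69 (6.46-fold) at A_73_P101506, -2.23 (4.68-fold) at A_73_P103071 and -1.85 (3.59-fold) at A_73_115997. No MFG array overlapped an MSC array at any of them, and all 4 calls were kept under every alternative run. Against PNCB the brightest probe fell furthest, with an MFG level of -3.85 ± 0.30 (SD, n = 7) and a difference of -2.91 (7.51-fold, adjusted p = 7.1e-09 by limma, 6 of 6 goats). A_73_P101506 and A_73_P103071 were lower than in PNCB by -1.02 and -0.62, and A_73_115997 did not pass at -0.40 (adjusted p = 0.12). The call at A_73_P103071 was lost in 5 of 24 alternatives, among them each breed alone (-0.56 and -0.67). With the goat as a block A_73_115997 was called (adjusted p = 0.0452).

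TLR6, which pairs with TLR2 for diacylated lipopeptides, was measured by 6 probes, and 3 of them were lower in milk somatic cells than in blood. At the brightest, A_73_118113, the lowest, median and highest values were -2.36, -1.74 and -0.90 in MSC (mean -1.75 ± 0.54, SD, n = 8) and -0.84, -0.41 and -0.30 in PNCB (mean -0.47 ± 0.18, SD, n = 7). These did not overlap, and the difference was -1.28 (2.43-fold, adjusted p = 7.5e-05 by limma, 7 of 7 goats). A_73_P102341 was lower by -1.09 (2.13-fold) and A_73_P034511 1.99-fold lower, both in 8 of 8 goats and with no overlap. The calls of these 3 probes were kept under every alternative run, 25 for the brightest and 24 for each of the others. A_73_P034511 was well above background on 8 of 8 PNCB arrays but on only 4 of 8 MSC arrays. Only the PNCB groups had it well above background on all 4 arrays. Its difference ran from -3.64 to -0.82 over the alternatives.

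The other 3 TLR6 probes did not show this lower level. A_73_P103091 differed by 0.08 (95% interval -0.24 to 0.39) and A_73_P102361 by 0.27 (adjusted p = 0.0596). A_73_P102326 was higher in MSC by 0.31 (adjusted p = 0.0486), a call lost in 15 of 24 alternatives, among them the fit with the goat as a block (adjusted p = 0.0797). TLR6 thus split by probe in MSC against PNCB, 3 lower, 1 higher and 2 not called.

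Milk fat globules were lower than blood at all 6 TLR6 probes. The brightest gave -2.64 (6.25-fold, adjusted p = 1.5e-09 by limma, 7 of 7 goats), from an MFG level of -3.11 ± 0.57 (SD, n = 8). A_73_P102341 gave -1.39, A_73_P034511 was 2.01-fold lower, and A_73_P103091 and A_73_P102326 gave -0.52 and -0.48. The calls of the latter pair were kept in 21 and 22 of 24 alternatives. Among the losses was the fit with PFI goats alone, at -0.42 and -0.18. A_73_P103091, A_73_P102326 and A_73_P034511 were well above background on only 3, 2 and 2 of 8 MFG arrays. Over the alternatives their differences ran from -2.14 to -0.38, -2.02 to -0.18 and -3.81 to -0.71. Cy3 alone was 0.47 higher in MFG than in PNCB at A_73_118113 and 0.50 higher at A_73_P102341. Its part in the result was not tested. A_73_P102361 was not well above background on any MFG array, so only a bound is given for it. In the Cy5 channel it was at least 1.44-fold higher in PNCB (adjusted p = 0.0026 by limma on the ratios, lost with PFI goats alone) and at least 1.78-fold higher in MSC (adjusted p = 0.00010) than in MFG. A bound of this kind is the mean signal of the brighter source over the dimmer source's mean of, per array with a value, the higher of the probe's own signal and the lowest signal among probes well above background. Dye bias was not balanced, and on the ratios the measured differences were -0.44 and -0.71.

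Against milk somatic cells, 4 of the 6 TLR6 probes were lower in MFG, which were A_73_118113 (-1.36), A_73_P103091 (-0.60), A_73_P102326 (-0.79) and A_73_P102361, for which the bound above holds. A_73_P034511 did not differ detectably (-0.01, 95% interval -0.26 to 0.24), and A_73_P102341 did not pass at -0.30 (adjusted p = 0.059), where the goat block gave a call (adjusted p = 0.0302). A_73_P034511 was well above background on 4 of 8 MSC and 2 of 8 MFG arrays, so its difference compares signals near background. With PWI goats alone the calls at A_73_118113 (-0.99) and A_73_P103091 (-0.66) were lost. These calls were kept in 24 of 25 and in 21 of 24 alternatives in turn. At A_73_118113 the array of PWI goat 2, with its low spike-in slope, stood at -1.73 while the other 7 MFG arrays lay at -3.46 to -3.08.

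**Figure D3:**
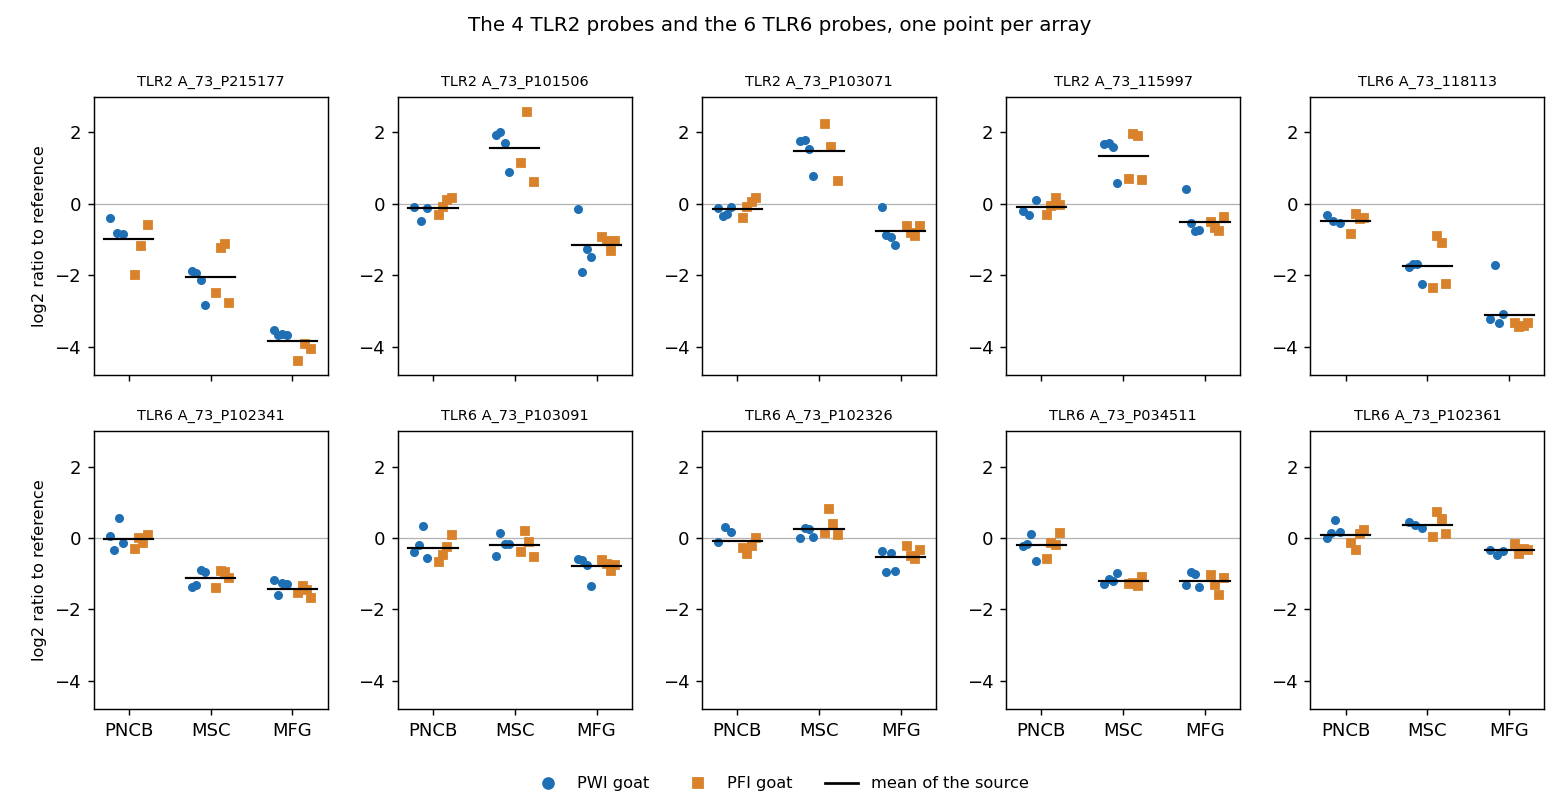
Log2 ratio to the common reference (y axis) by RNA source (x axis) at the 4 TLR2 probes and the 6 TLR6 probes, with 1 point per array marked by breed and a bar at the mean of the source. MSC arrays lie above PNCB arrays at 3 TLR2 probes and below them at 3 TLR6 probes, and the brightest TLR2 probe falls to -4.39 in MFG.

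TLR1, which pairs with TLR2 for triacylated lipopeptides, had 1 probe, A_73_P103066. It was well above background on 6 of 8 PNCB arrays and on 0 MSC and 0 MFG arrays, and it was not tested. In the Cy5 channel its PNCB signal was at least 1.16-fold higher than in MSC and at least 1.14-fold higher than in MFG. The log2 ratios showed less, with mean levels of -0.15 in MSC, -0.10 in PNCB and -0.18 in MFG. Dye bias was not balanced, so the direction at TLR1 stays unsettled. In the goat gene table (assembly ARS1.2) TLR1 lies next to TLR10 and is parted from TLR6 by 1 gene model, and the 3 are known as close copies in mammals. Whether a TLR6 probe also reads TLR1 or TLR10 transcripts was not tested.

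The endosomal receptors were dim. TLR7, a sensor of single-stranded RNA, had lower ratios in both milk sources than in blood, with milk signals partly near background. At A_73_118687 the levels were -0.56 ± 0.19 (SD, n = 8) in MSC, -0.05 ± 0.30 (SD, n = 8) in PNCB and -0.76 ± 0.15 (SD, n = 7) in MFG. MSC overlapped PNCB although it was lower in 8 of 8 goats, by -0.51 (1.42-fold, adjusted p = 0.0017 by limma). With PWI goats alone this was -0.50 and not called (adjusted p = 0.072). MFG did not overlap PNCB and was lower by -0.70 (1.62-fold, adjusted p = 6.3e-05) in 7 of 7 goats. This probe was tested only through blood, the source where it is high, which favours both calls. On MFG arrays it was well above background on only 2 of 8.

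The second TLR7 probe, A_73_P103096, differed by -0.44 in MSC and by -0.74 in MFG against PNCB, the direction of the first probe. The MSC call was lost with PFI goats alone (-0.27), and with flagged spots kept the differences turned to 0.31 and 0.13 and were not called. It was also lower in MFG than in MSC by -0.30 (adjusted p = 0.0396), a call lost in 10 of 24 alternatives, the goat block among them (adjusted p = 0.0758). Only 2 of 8 MFG arrays were well above background at either TLR7 probe. In MSC the numbers were 6 of 8 at A_73_118687 and 7 of 8 at A_73_P103096. Only the PNCB groups had A_73_118687 well above background on all 4 arrays. The size differed between processings. With the scanner software's own log ratio, which also differs in dye normalization and flag handling, the differences from PNCB were -1.84 (MSC) and -3.01 (MFG) at A_73_118687 and -1.51 and -3.22 at A_73_P103096.

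TLR3, a sensor of double-stranded RNA, gave no called difference between sources as processed here, but other processings gave some. Both tested probes, A_73_P369241 and A_73_P035191, were well above background on 7 of 8 PNCB arrays and on at most 2 arrays of a milk source. Only the PFI group of PNCB had them well above background on all 4 arrays. Both were thus tested only through a blood group, which favours calls of a lower milk signal. At A_73_P369241 the differences from PNCB were -0.20 in MSC (95% interval -0.42 to 0.02) and -0.22 in MFG (95% interval -0.43 to 0.00). With the scanner's log ratio they were -1.49 and -1.58, and with Cy5 alone -0.36 and -0.42, all 4 called. The calls of this probe changed in 4 of 24 alternatives in MSC against PNCB and in 6 of 24 in MFG against PNCB.

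The other tested TLR3 probe, A_73_P035191, had no stable direction. It was not well above background on any MSC array, and in Cy5 its PNCB signal was at least 1.10-fold higher than in MSC, while the ratios gave 0.09 in MSC against PNCB, which was not called. The scanner's log ratio gave -1.79 there and Cy5 alone -0.27, both called. In MFG against PNCB it gave 0.18 (adjusted p = 0.14 by limma), with Cy5 alone -0.25 and with median centring 0.29, the latter pair called. In MFG against MSC the scanner's log ratio gave 1.22 and a call (adjusted p = 0.0047), where the ratios gave 0.09 and none. The third TLR3 probe, A_73_P324536, was well above background on 0 arrays.

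TLR9, a sensor of unmethylated CpG DNA, was the only gene called higher in milk fat globules than in blood, and this call was not stable. At A_73_P103106 the levels were 0.47 ± 0.07 (SD, n = 8) in MSC, 0.12 ± 0.76 (SD, n = 7) in PNCB and 0.61 ± 0.21 (SD, n = 8) in MFG. The wide PNCB spread came with 1 array, PWI goat 3 at -1.52, which is also an array of low spike-in slope. The other 6 PNCB arrays lay between 0.06 and 0.79. The difference of MFG from PNCB was 0.52 (1.43-fold, adjusted p = 0.0448 by limma, 5 of 7 goats). Without PWI goat 3 it was 0.10 (adjusted p = 0.34), and the call was lost in 14 of 25 alternatives. The second TLR9 probe, A_73_101913, was well above background on 1 of 24 arrays and was not tested.

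MYD88, the adaptor shared by these receptors except TLR3, was much lower in milk fat globules than in either cell source at its brightest probe. At A_73_P033026 the lowest, median and highest values were -1.17, -0.36 and 0.59 in MSC (mean -0.37 ± 0.53, SD, n = 8). They were -0.74, -0.08 and 0.15 in PNCB (mean -0.19 ± 0.35, SD, n = 8). In MFG they were -2.94, -2.42 and -1.94 (mean -2.42 ± 0.30, SD, n = 8). The highest MFG array was below the lowest array of both cell sources. The difference of MFG was -2.23 from PNCB (4.69-fold, adjusted p = 1.3e-09 by limma) and -2.05 from MSC (4.15-fold, adjusted p = 5.7e-08), each in 8 of 8 goats. Both calls were kept under each of 25 alternatives. MSC did not pass against PNCB, with a difference of -0.18 (95% interval -0.59 to 0.23).

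The dimmer MYD88 probes gave smaller differences. Against MSC, MFG was lower by -0.61 (1.52-fold) at A_73_119857 and by -0.57 (1.49-fold) at A_73_P102901. With PWI goats alone these were -0.55 and -0.56 and not called. Their calls were kept in 23 and 22 of 24 alternatives in turn. Against PNCB, A_73_119857 did not pass (-0.17, 95% interval -0.41 to 0.07), and A_73_P102901 was lower by -0.36 (adjusted p = 0.0226), a call lost in 12 of 24 alternatives, among them the goat as a block (adjusted p = 0.0666) and flagged spots kept, where the difference turned to 0.41. A_73_119857 was higher in MSC than in PNCB by 0.43 (adjusted p = 0.0030 by limma) but in only 5 of 7 goats. This call was lost in 5 of 24 alternatives, among them median centring (0.04) and PFI goats alone (0.14).

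The MSC arrays of different goats differed from each other, and several of these genes ran in a like order on them. PFI goats 2 and 3 were the highest of the 8 at the brightest probes of TLR2 (-1.25 and -1.13), TLR4 (1.94 and 1.99), TLR6 (-0.90 and -1.09), LY96 (0.18 and 0.14) and MYD88 (0.03 and 0.59). At TLR2 and TLR6 the lowest arrays were PFI goats 1 and 4 and PWI goat 4, at -2.49, -2.78 and -2.83 for TLR2 and at -2.36, -2.23 and -2.24 for TLR6. PFI goat 1 was also the lowest at TLR4 (0.75), LY96 (-1.41) and MYD88 (-1.17). The 3 dimmer TLR2 probes placed PFI goat 4 and PWI goat 4 low as well, at 0.62 and 0.90 for A_73_P101506. This order was noted after the values were seen, and no test was made of it. All MSC arrays share a scan day, with a slide for each breed. PWI goat 4 and PFI goats 1 and 4 also had the lowest shares of probes well above background in Cy5 in MSC. These were 51.2%, 51.5% and 54.5%, against 56.3% to 60.9% on the other MSC arrays. Each goat gave a single MSC array, so goat and array cannot be told apart.

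The reference channel was compared by itself, since the same reference RNA was on every array. In MSC against PNCB, 0 of the 23 probes were called in Cy3 by limma, with a largest absolute difference of 0.27, beside 2.19% of all probes. In MFG against PNCB and in MFG against MSC, 7 of the 23 were called in each, beside 38.1% and 39.5% of all probes. In MFG against PNCB these were both CD14 probes, 2 TLR6 probes and 1 probe each of TLR4, TLR3 and MYD88, and the largest difference was the 0.73 of CD14. In MFG against MSC, 6 were higher in MFG and 1 was lower. The higher ones were both CD14 probes, TLR4 A_73_P047906, MYD88 A_73_119857, and TLR6 A_73_118113 and A_73_P102341. The lower one was TLR6 A_73_P102326. At MYD88 A_73_P033026 the Cy3 difference was -0.16 in MFG against PNCB and -0.05 in MFG against MSC. The part of Cy3 in the result was not tested.

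The second question was whether the breeds differ, and no probe of these genes did so past the threshold. In limma fits of 8 arrays, 0 of the 23 probes were called in MSC (beside 0% of all probes), 0 in PNCB (beside 0.0109%) and 0 in MFG (beside 0.0146%). Over the 3 sources, with 1 mean per goat, 0 were called (beside 0.00366%), and 0 in the test of whether breed differences differ between sources (beside 0.0146%). At unadjusted p under 0.05 there were 0, 1, 2, 0 and 2 of the 23 probes in the same order, beside 4.38%, 3.56%, 8.58%, 6.23% and 6.13% of all probes. The lowest adjusted p-values were 0.988, 0.972, 0.543, 0.808 and 0.772.

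The lowest unadjusted p for a breed difference was at the brightest TLR2 probe in MFG. There the 4 PWI arrays lay between -3.68 and -3.54 and the 3 measured PFI arrays between -4.39 and -3.93. The breeds did not overlap, but the share of all probes without overlap between breeds was not counted. The difference of PWI from PFI was 0.50 (95% interval 0.18 to 0.81, adjusted p = 0.54 by limma). CD14 A_73_116002 in MFG differed by 0.54 (95% interval 0.01 to 1.07, adjusted p = 0.54). MYD88 A_73_119857 in PNCB was lower in PWI by -0.51 (95% interval -0.85 to -0.18, adjusted p = 0.97), with 3 PWI arrays at -0.35 to -0.31 and 4 PFI arrays at 0.10 to 0.29. Breed and slide cannot be told apart in each of these.

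The intervals show what 4 goats per breed could resolve. For the difference of PWI from PFI, 20 of the 23 intervals at 95% stayed inside 2-fold in MSC, and 21 did so in PNCB. The number was 20 in MFG and 23 with the sources averaged. The probes whose interval passed 2-fold were A_73_P215177 and A_73_P101506 of TLR2 and A_73_P103081 of TLR4 in MSC, TLR2 A_73_P215177 and TLR9 A_73_P103106 in PNCB, and the brightest probes of CD14, TLR4 and TLR6 in MFG. At TLR4 A_73_P047906 the difference of PWI from PFI was -0.10 in MSC (95% interval -0.77 to 0.57) and 0.02 in PNCB (95% interval -0.51 to 0.55).

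**Figure D4:**
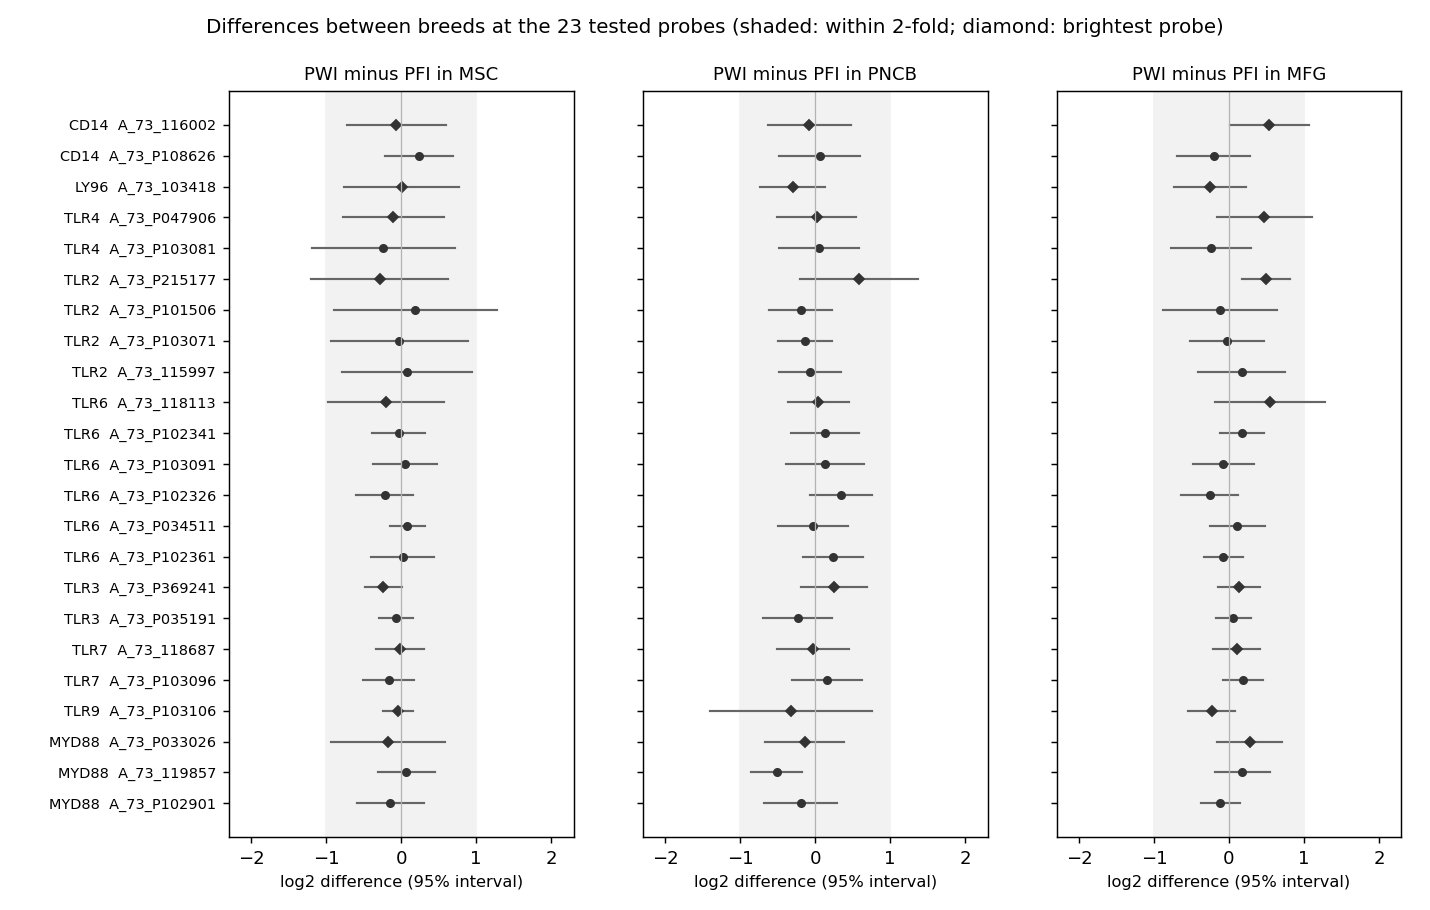
Log2 difference of PWI from PFI goats (x axis, with 95% interval, shaded within 2-fold) at each of the 23 tested probes (y axis), with 1 panel per RNA source and a diamond for the brightest probe of each gene. No probe was called at an adjusted p under 0.05, and 20, 21 and 20 intervals lie within the shaded range in MSC, PNCB and MFG.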

How the data were processed

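Per the file headers, the scanner files hold median spot and background intensity of both channels from Agilent Feature Extraction 10.7.3.1, with flags per spot, on a cattle array (bosTau6 / UMD_3.1). The authors' deposited table gives each spot's log10 ratio (Cy5 over Cy3), the same as that in the scanner files (largest difference 0). From the intensities, flagged spots were left out, background was corrected by normexp (offset 50), arrays were normalized by loess and spots averaged per probe with R 4.3.3 and limma 3.58.1. Tests took the 27411 probes with Cy5 well above background on each of the 4 arrays of some group, and 0 spots were saturated. Sources were compared in 1 limma fit of 24 arrays over the 27381 probes with a value in every group, breeds in fits of 8 arrays, with Benjamini-Hochberg adjustment over all probes and a threshold of 0.05, two-sided. The main fit was tested on simulated data without missing values, with changes set in MSC and only MSC against PNCB checked. The breed fits and the alternatives were not checked in this way. The number of arrays limits the precision.

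All probes of the members are named whatever their values, and the gene value is that of its brightest probe. Members and lists were chosen with earlier results of these data known. Of 26748 accessions, 0 matched the goat gene table (assembly ARS1.2), so the lists of other pathway genes and of cell type markers, and the genes most like CD14, are not analysed here. The labels name the same goats in all sources, so goat numbers pair the arrays. Residuals of a goat in different sources correlated between -0.26 and 0.32 over 24 pairs (median 0.02). Alternatives were the scanner's ratio, the deposited table, median centring, Cy5 alone, other filters and flag handling, array weights, goat or slide as a block, 1 breed alone and each goat left out. The scanner's ratio and the deposited table hold the same values, but counts of alternatives and of reversals include them as separate settings.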

Additional observations from a re-analysis of the deposited data

Results flagged for a closer look

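Of 115 groups of 4 arrays with a value of a tested probe on each, 4 held an array far from the other 3 by Dixon's test at its 95% critical value, where chance gives about 5.75. A further 23 groups lacked a value and were not looked at. PWI goat 4 in MSC stood at 0.57 at TLR2 A_73_115997, where the other PWI goats lay between 1.59 and 1.72. The same goat in MSC stood at -2.24 at TLR6 A_73_118113, where the others lay between -1.78 and -1.68. PWI goat 2 in MFG stood at -1.73 at TLR6 A_73_118113, where the others lay between -3.33 and -3.08, and this array has a low spike-in slope. PFI goat 3 in PNCB stood at -0.27 at TLR3 A_73_P035191, where the others lay between -0.14 and -0.12.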

How the results depend on the processing

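Over 25 alternatives, the number of the 9 genes called was 3 to 6 in MSC against PNCB (4 as reported), 5 to 9 in MFG against PNCB (7) and 4 to 7 in MFG against MSC (6). It was 0 in all breed comparisons under 21 alternatives and in the interaction under 22. With each goat left out in turn the counts were 4 to 5, 6 to 7 and 6. Of 1677 values at single probes, 1480 kept direction and side of the threshold, 81 lost the call, 60 gained one, 47 changed sign with no call on either side and 9 reversed. The reversals were TLR7 A_73_P103096 with flagged spots kept (MSC against PNCB 0.31, MFG against PNCB 0.13), MYD88 A_73_P102901 with flagged spots kept (MFG against PNCB 0.41) and TLR3 A_73_P035191, in MSC against PNCB, with the scanner's log ratio (-1.79), the deposited table (-1.79) and Cy5 alone (-0.27). The rest were TLR3 A_73_P035191 with Cy5 alone in MFG against PNCB (-0.25), CD14 A_73_116002 with Cy5 alone in MFG against PNCB (0.089) and TLR2 with the mean of its probes in MSC against PNCB (0.78). The cause was not tested. The split of called probes in MSC against PNCB, 7 higher and 6 lower, was 7 and 9 with Cy5 alone and 11 and 6 with array weights. Over all 27381 probes, 14576 and 15417 were called in these settings, against 13570 as reported. Median centring moved the all-probe median to -0.17, -0.82 and -0.61 in the 3 source comparisons in turn, from -0.04, -0.13 and -0.02. With the replicate block (goat) the counts of genes were 4, 6 and 6, and no call changed beyond the 6 probes named with it, TLR9 A_73_P103106 (adjusted p = 0.0651 in MFG against PNCB) among them. Differences at the dim TLR1, TLR3 and TLR7 probes are limited by signal near background. The same holds in MFG for TLR6 A_73_P103091, A_73_P102326, A_73_P034511 and A_73_P102361, and in MSC for A_73_P034511. The offset of 10, Cy3 alone and leaving out the 2 MFG arrays that stood apart or the 3 of low slope were chosen after the data were seen.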
